A study of Mus musculus with 18 samples.

Results

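Hox genes were followed across 3 mouse fat depots: inguinal white adipose tissue (iWAT, under the skin of the groin), epididymal white adipose tissue (eWAT, inside the abdomen beside the epididymis) and brown adipose tissue (BAT, the heat-producing depot, which carries UCP1). A gene was a member when its symbol in the count tables was Hox, a cluster letter from a to d and a number. This gave 39 genes of the 25124 in each table: 11 HoxA genes on chromosome 6, 10 HoxB genes on chromosome 11, 9 HoxC genes on chromosome 15 and 9 HoxD genes on chromosome 2. All mice were males on a C57BL/6J background that ate a high-fat diet, with 60% of its calories from fat, for 12 weeks from an age of 10 to 14 weeks. They were either wild-type (WT) or carried a whole-body caspase-6 knockout (C6KO), bred from heterozygous parents, and each depot held 3 WT and 3 C6KO libraries of poly(A) RNA from whole tissue, 18 libraries in all. The labels do not say which libraries of different depots came from the same mouse. In whole tissue, fewer cells of a type and less RNA per cell cannot be told apart.

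Hox genes encode homeodomain transcription factors that give cells their position along the head-to-tail axis of the embryo. Within a cluster the genes lie in the order in which they are used along that axis, so that a low paralogue number marks an anterior gene and a high number a posterior one. Adult fat keeps a depot-specific Hox pattern, which is commonly read as a trace of where its progenitors came from. HOX proteins bind DNA together with TALE cofactors (PBX, MEIS and PKNOX), and Polycomb and Trithorax complexes keep the clusters silent or active. Here paralogues 1 to 3 are called anterior (8 genes), 4 to 8 central (15 genes) and 9 to 13 posterior (16 genes).

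RefSeq promoter windows, from 250 bases before to 50 bases after a transcript start in GRCm38.p6, were found for 22 of the 39 genes, with 24 windows in all. Windows of 4 HoxA genes are shown because the depots part along this stretch. Hoxa5 was highest in BAT and Hoxa7 was transcribed in every depot. In WT, Hoxa9 and Hoxa10 were near 0 outside iWAT. Capitals mark the GC box GGGCGG and the TATA box TATAAA on either strand.
Hoxa5, chr6:52204538-52204837, minus strand: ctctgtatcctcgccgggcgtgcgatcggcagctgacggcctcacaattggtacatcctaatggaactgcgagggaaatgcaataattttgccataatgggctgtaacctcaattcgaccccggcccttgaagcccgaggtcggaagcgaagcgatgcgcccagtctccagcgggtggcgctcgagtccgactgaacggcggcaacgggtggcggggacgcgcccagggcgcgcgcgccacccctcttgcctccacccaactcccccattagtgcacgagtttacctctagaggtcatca
Hoxa7, chr6:52218524-52218823, minus strand: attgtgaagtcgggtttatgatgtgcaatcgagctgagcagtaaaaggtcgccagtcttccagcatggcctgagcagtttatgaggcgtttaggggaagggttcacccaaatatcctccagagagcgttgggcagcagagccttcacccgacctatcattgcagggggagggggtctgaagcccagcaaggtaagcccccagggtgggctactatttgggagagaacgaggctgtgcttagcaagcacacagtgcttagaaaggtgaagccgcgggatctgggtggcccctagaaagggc
Hoxa9, chr6:52227321-52227620, minus strand: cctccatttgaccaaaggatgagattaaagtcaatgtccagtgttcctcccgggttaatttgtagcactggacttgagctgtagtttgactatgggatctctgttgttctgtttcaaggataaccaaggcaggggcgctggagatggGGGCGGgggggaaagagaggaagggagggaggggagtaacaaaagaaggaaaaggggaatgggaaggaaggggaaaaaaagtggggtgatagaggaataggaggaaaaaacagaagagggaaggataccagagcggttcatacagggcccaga
Hoxa10, chr6:52234890-52235189, minus strand: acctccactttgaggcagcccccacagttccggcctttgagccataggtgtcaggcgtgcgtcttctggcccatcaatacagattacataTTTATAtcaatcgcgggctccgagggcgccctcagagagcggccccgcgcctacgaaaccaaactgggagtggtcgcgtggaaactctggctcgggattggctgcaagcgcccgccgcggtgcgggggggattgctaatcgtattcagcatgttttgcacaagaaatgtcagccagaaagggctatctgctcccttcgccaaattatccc
The Hoxa5 window held 29 CpG dinucleotides and the Hoxa10 window shown 21, whereas Hoxa7 had 9 and Hoxa9 had 4. Not shown are a further Hoxa10 window, with 12 CpG and 2 GC boxes, and that of Hoxa6, which lies between Hoxa5 and Hoxa7, with 26 CpG and 5 GC boxes. The median was 14.5 over the 24 Hox windows and 7 over all 32851 windows. A GC box was present in 10 of 24 Hox windows against 35.7% of all windows, and a TATA box in 4 of 24 against 13.6%. The HOX-PBX sequence TGATTNAT was found in 2 Hox windows (3.22% of all) and the nuclear receptor half-site AGGTCA in 7 (16.3% of all), each searched on both strands. These matches describe letters in a window and are not measured binding sites.

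BAT libraries held 7803108 to 12428683 counts each, eWAT libraries 16717201 to 19139694 and iWAT libraries 16506034 to 19043523. Each depot was deposited as its own table, so the depot, the table and the lower depth of BAT cannot be told apart. The depot labels were checked against markers. Brown adipocyte markers summed to 7533 to 16558 CPM (counts relative to the library total after TMM scaling) in BAT and to at most 152 in the other libraries, and mesothelium markers, which line abdominal fat, summed to 53.7 to 251 CPM in eWAT and at most 9.53 elsewhere. Epididymal epithelium markers stayed at or below 0.802 CPM in every library. For Casp6, WT iWAT gave 342, 338 and 289 counts and C6KO iWAT 99, 112 and 141. The same counts were 322, 422 and 331 against 100, 124 and 74 for eWAT, and 145, 127 and 139 against 26, 65 and 71 for BAT, so every C6KO library lay below every WT library of its depot. One library stood apart: skeletal muscle markers summed to 34730 CPM in WT BAT replicate 2, against 45.3 to 6934 in the other BAT libraries and 37.5 to 592 in white fat.

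Of the 39 genes, 33 had a count in at least 1 library. The 6 with 0 counts in all 18 libraries were Hoxa13, Hoxb1, Hoxc12, Hoxc13, Hoxd12 and Hoxd13, of which all but Hoxb1, an anterior gene of the hindbrain, are posterior genes. A count of 0 still allows up to 3 counts over a group. All 15 central genes had counts in every group, and in WT 27 genes reached 10 counts in every library of iWAT, 24 in eWAT and 20 in BAT. Among the 16 posterior genes, 6 reached 10 counts in every library of WT iWAT, against 3 for eWAT and 0 for BAT. The anterior gene Hoxd3, with 8, 26 and 4 counts, fell short in BAT as well.

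Levels between genes were compared per length, as counts per kilobase of the listed transcript and library size (RPKM, scaled by TMM over all libraries). In WT iWAT the highest genes were Hoxc8 with 31.8 ± 6.12 RPKM (SD, n = 3), Hoxc6 with 16.1 ± 2.33 and Hoxd8 with 9.37 ± 1.35. Hoxd8 (7.82 to 10.3) was not separated there from Hoxc10, which spanned 7.33 to 11.7 RPKM. In WT eWAT the highest means were Hoxc8 at 15.4 ± 1.15, Hoxc6 at 9.56 ± 1.6 and Hoxd8 at 7.83 ± 0.442. The ranges of Hoxc6 (8.11 to 11.3) and Hoxd8 (7.33 to 8.16) overlapped, but Hoxc6 was the higher of the pair in each library. In WT BAT the highest were Hoxa5 at 25.4 ± 6.87, Hoxc5 at 18.8 ± 5.57 and Hoxc6 at 16.5 ± 3.15. The 3 BAT ranges overlapped, since Hoxa5 spanned 18.2 to 31.9, Hoxc5 13 to 24.1 and Hoxc6 12.8 to 18.5 RPKM. Within each WT BAT library the order was the same, with Hoxa5 above Hoxc5 and Hoxc5 above Hoxc6. In replicate 2 Hoxc5 and Hoxc6 were close, at 13 and 12.8 RPKM. This order was not tested. In both white depots Hoxc8 lay above Hoxc6 without overlap, with a lowest library of 25.5 against a highest of 17.5 in iWAT and 14.3 against 11.3 in eWAT.

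**Figure D1:**
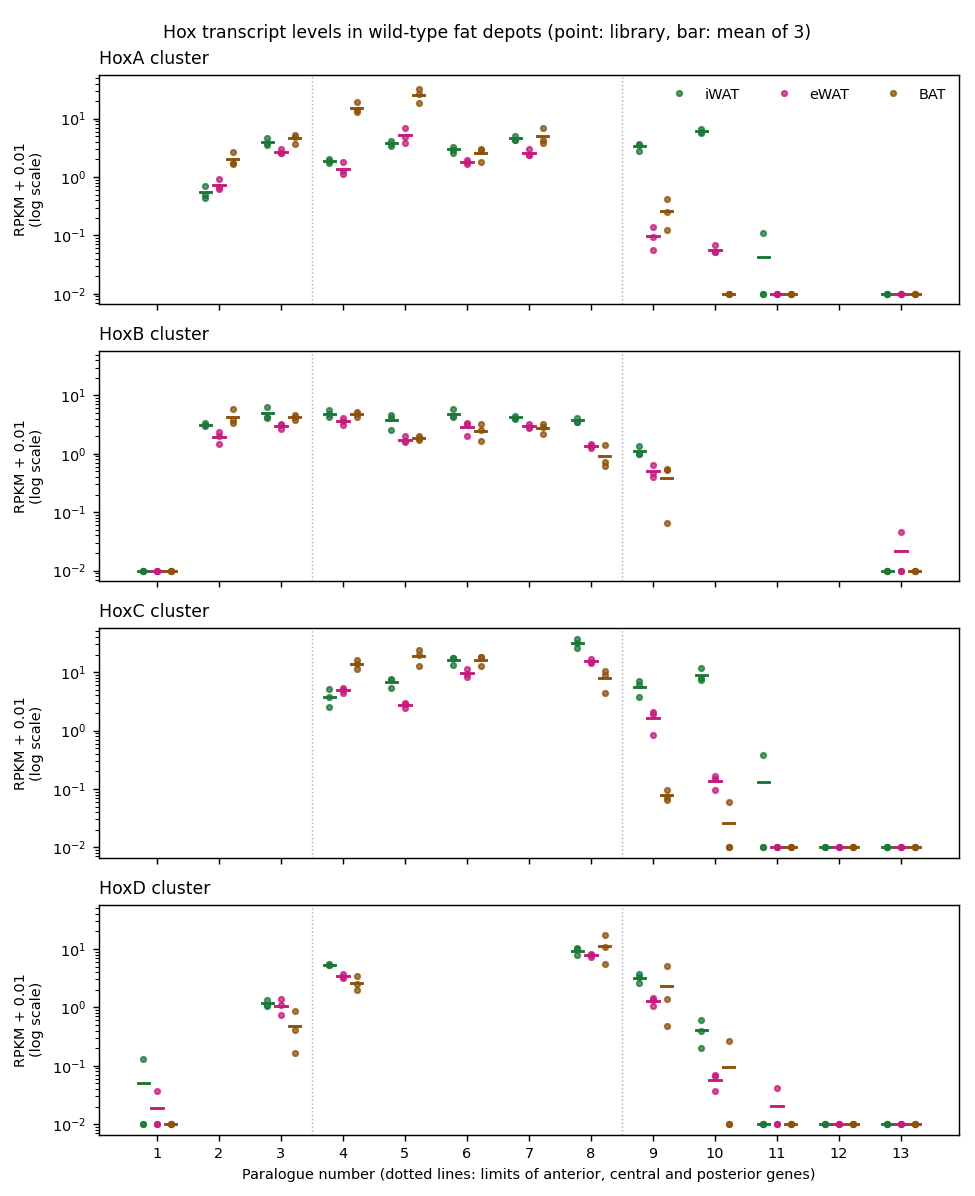
Level of Hox genes in WT libraries (38 of the 39 drawn) by cluster (panels) and paralogue number (x axis), as RPKM plus 0.01 on a log scale; each point is 1 library, each bar the mean of 3, and colours mark the depots. Central genes were present in all depots, while paralogues 9 and 10 of HoxA and HoxC were high in iWAT and at most 0.407 RPKM in BAT, and BAT was highest at Hoxa4, Hoxa5, Hoxc4 and Hoxc5.

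Summed over the 39 genes, Hox levels were 136 to 161 RPKM in WT iWAT, 72.8 to 89.7 in WT eWAT and 141 to 165 in WT BAT. HoxC made the largest share in white fat, with 48.0 ± 3.75% in WT iWAT and 42.0 ± 0.632% in WT eWAT. In WT BAT, HoxA (37.1 ± 3.07%) and HoxC (37.5 ± 5.08%) were alike within their spread.

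By position, posterior genes made 18.1, 19.1 and 19.8% of the summed level in the WT iWAT libraries, 4.86, 3.53 and 5.07% in eWAT and 1.18, 4.38 and 0.873% in BAT. The iWAT values lay far above the others, and the eWAT and BAT values overlapped through BAT replicate 2, the library with muscle transcripts. Weighting each paralogue number by its level gave a mean of 6.60, 6.74 and 6.70 in WT iWAT, 5.90, 5.96 and 5.92 in WT eWAT and 4.99, 5.47 and 5.17 in WT BAT, with no overlap between depots. The C6KO libraries fell in the same order, at 6.68 to 6.77, 5.87 to 6.08 and 5.03 to 5.12. These summaries over chosen genes carry no test.

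**Figure D2:**
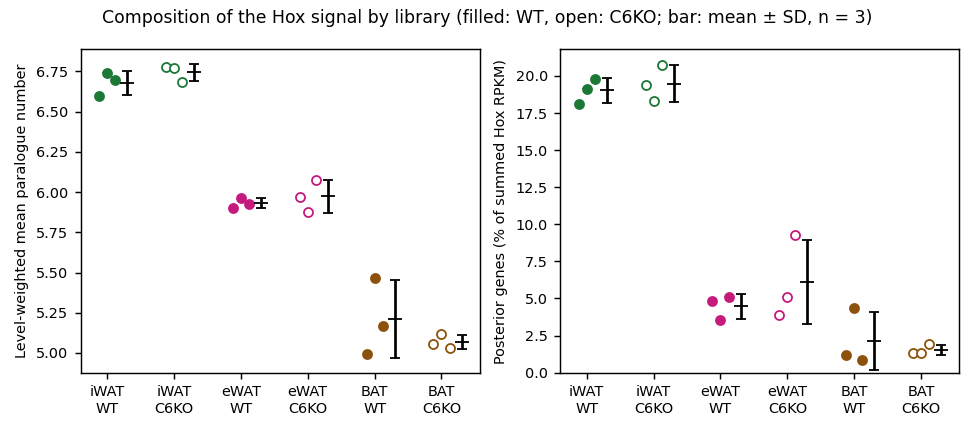
Level-weighted mean paralogue number (left) and percent of the summed Hox RPKM from posterior genes (right) in each library of the 6 groups, filled points for WT and open points for C6KO, with the mean ± SD of 3 libraries beside them. On the left the 3 depots do not overlap in either genotype, and on the right iWAT stands at 18.1 to 20.8% while the other libraries reach at most 9.29%.

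The first depot comparison set eWAT against iWAT in WT mice. No Hox gene was higher in eWAT and 13 of the 27 tested were lower, of all 39 members, while over all genes 14.3% were called higher and 14% lower. A call needed a Benjamini-Hochberg adjusted p under 0.05 in edgeR's quasi-likelihood test over 15226 genes and a fold of at least 1.5. The median log2 fold change of the tested Hox genes was -0.72, beside 0.01 for all genes. By position, 1 of 6 tested anterior genes was called lower, 8 of 15 central genes and 4 of 6 posterior genes. Genes with few counts in every depot were dropped before testing. Hoxa9, Hoxa10 and Hoxc10 passed this filter only through iWAT, so they could enter the tally only as genes lower outside it.

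The posterior genes of HoxA and HoxC carried the largest differences. Hoxa10, a gene of the hindlimb and reproductive tract, had 287, 245 and 268 counts in WT iWAT and 2, 3 and 2 in WT eWAT, and Hoxc10 had 236, 375 and 273 against 3, 6 and 5. Both were thus close to absent in eWAT. Their log2 fold changes were -6.91 ± 0.31 (SE, adjusted p = 9.31e-06) and -6.10 ± 0.38 (adjusted p = 9.31e-06). Hoxa9 had 2.79, 3.71 and 3.59 RPKM in iWAT and 0.0839, 0.0457 and 0.131 in eWAT, a log2 fold change of -5.24 ± 0.45 (adjusted p = 2.21e-05). Hoxc9, used as a mark of subcutaneous white fat, differed less, with 6.92, 5.93 and 3.76 RPKM in iWAT and 1.93, 0.832 and 2.06 in eWAT (log2 fold change -1.78 ± 0.36, adjusted p = 0.00323). Hoxb9 (-1.17 ± 0.50, adjusted p = 0.0924) and Hoxd9 (-1.34 ± 0.64, adjusted p = 0.133) did not pass.

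Central genes were lower in eWAT by smaller amounts. Hoxc8, the most abundant Hox transcript of white fat, had 32.1, 37.8 and 25.5 RPKM in iWAT and 15.2, 14.3 and 16.6 in eWAT (log2 fold change -1.05 ± 0.26, adjusted p = 0.011). Hoxb8 (-1.46 ± 0.28) and Hoxc5 (-1.32 ± 0.23) differed most among the 8, which also held Hoxb5 (-1.14 ± 0.26), Hoxa7 (-0.81 ± 0.24), Hoxc6 (-0.75 ± 0.19), Hoxa6 (-0.71 ± 0.24) and Hoxd4 (-0.65 ± 0.20). The anterior gene called was Hoxb3 (-0.72 ± 0.19). The calls of Hoxa6 and Hoxd4 were lost without any 1 of the 6 WT libraries of these depots (adjusted p up to 0.134 and 0.0944), that of Hoxa7 without iWAT replicate 1 or 3 or eWAT replicate 2 or 3 (up to 0.0819), and that of Hoxb3 without iWAT replicate 1 or eWAT replicate 2 (up to 0.0688). Between the 2 depots 21 of 27 genes did not overlap, all lower in eWAT, beside 29.6% of all genes that were lower without overlap and 30.0% that were higher. Macrophage markers summed to 5305 to 6244 CPM in WT eWAT and 1585 to 1767 in WT iWAT, and adipocyte markers to 9962 to 11934 against 26389 to 29960; the part of this cell mixture in the Hox differences was not tested.

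BAT against iWAT gave differences in both directions. In WT, 5 of 27 tested genes were higher in BAT and 10 were lower, beside 20.0% and 20.2% of all genes. The higher genes were anterior or central, namely Hoxa2, Hoxa4, Hoxa5, Hoxc4 and Hoxc5. The lower genes were 5 of the 6 tested posterior genes and 5 of 15 central ones. Among the posterior genes, Hoxa9, Hoxa10 and Hoxc10 were again in the test only through their iWAT counts. Hoxa4 had 1.75, 1.87 and 2.06 RPKM in iWAT and 19, 14.1 and 13 in BAT, a log2 fold change of 3.02 ± 0.24 (adjusted p = 3.81e-06). Hoxa5, which acts in the cervical and thoracic region of the embryo, had 4.21, 3.43 and 3.68 RPKM in iWAT and 31.9, 18.2 and 26.2 in BAT (2.75 ± 0.26, adjusted p = 1.32e-05). For both genes every BAT library was above every iWAT library. Hoxa2 (1.92 ± 0.38), Hoxc4 (1.85 ± 0.24) and Hoxc5 (1.47 ± 0.22) followed.

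In the other direction, Hoxa10 had 0 counts in all 6 BAT libraries against 245 to 287 in WT iWAT. Against a floor of 3 counts over the 3 BAT libraries it was at least 138-fold lower in WT. Hoxc10 had 1 count in WT BAT and 884 in WT iWAT, a ratio of 457 with a 95% counting interval of 81.8 to 18061. Hoxc9 had 1 count in each WT BAT library, a ratio of 83.7 (28.5 to 407). These intervals cover counting error only. Hoxa9 was detected in BAT at 0.407, 0.116 and 0.239 RPKM and was lower than in iWAT by a log2 fold change of -3.78 ± 0.43 (adjusted p = 4.46e-05). Hoxb8 (-2.01 ± 0.30), Hoxc8 (-2.0 ± 0.27), Hoxb9 (-1.51 ± 0.54), Hoxd4 (-1.04 ± 0.21), Hoxb5 (-1.02 ± 0.27) and Hoxb6 (-0.95 ± 0.30) were the remaining genes called lower. The Hoxb9 call was lost without any 1 of the 6 white fat libraries of the fit (adjusted p up to 0.112) and the Hoxb6 call without iWAT replicate 2 or BAT replicate 1 or 3 (up to 0.0875).

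**Figure D3:**
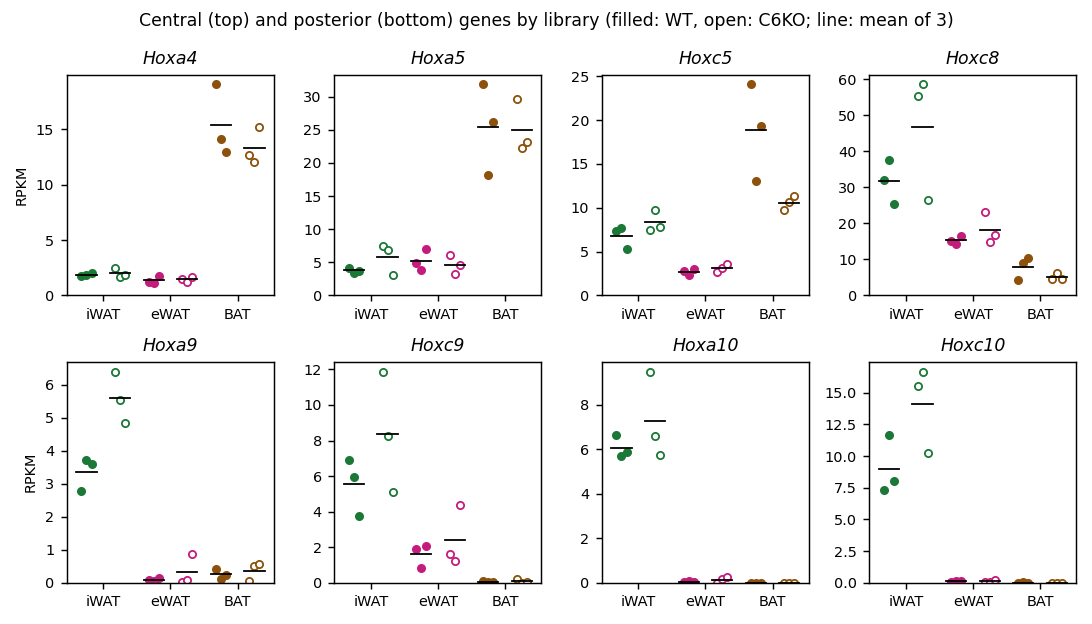
RPKM of 4 central genes (top row) and 4 posterior genes (bottom row) in each library, by depot, with WT filled, C6KO open and lines at the mean of 3. Hoxa4, Hoxa5 and Hoxc5 were highest in BAT, Hoxc8 was highest in iWAT, and the posterior genes were highest in iWAT, with Hoxa10 at 0 in all 6 BAT libraries.

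Against eWAT, BAT was higher for 10 of 27 tested genes in WT and lower for 4, beside 25.2% and 25.0% of all genes. Scaling libraries by total counts alone, which shifted the Hox log2 fold changes of this comparison by a median of -0.29, gave 7 higher and 7 lower, beside 18% and 32.8% of all genes. Hoxa4 had 1.24, 1.13 and 1.80 RPKM in WT eWAT and 19, 14.1 and 13 in BAT (log2 fold change 3.47 ± 0.24, adjusted p = 7.16e-07). Hoxc5 had 2.80, 2.38 and 3.0 RPKM in eWAT and 24.1, 13 and 19.3 in BAT (2.79 ± 0.24, adjusted p = 2.88e-06). BAT stood above eWAT without overlap at both genes. Hoxa5 (2.28 ± 0.25), Hoxc4 (1.5 ± 0.23), Hoxa2 (1.47 ± 0.37), Hoxa9 (1.47 ± 0.51), Hoxb2 (1.13 ± 0.28), Hoxa7 (0.94 ± 0.24), Hoxc6 (0.79 ± 0.19) and Hoxa3 (0.77 ± 0.19) were also higher. Of these, Hoxa3, Hoxa9 and Hoxc6 were not called under total counts alone.

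Hoxa9 was the only posterior gene called higher in BAT than in eWAT, on 9, 4 and 7 counts against 5, 3 and 8. Its RPKM of 0.407, 0.116 and 0.239 overlapped the 0.0839, 0.0457 and 0.131 of eWAT. Hoxc8 was lower in BAT, with 4.32, 8.89 and 10.4 RPKM against 15.2, 14.3 and 16.6 (-0.95 ± 0.27, adjusted p = 0.0115). Hoxc9 was lower by a ratio of 24.1 (8.10 to 118). The calls for Hoxa10 and Hoxc10 rested on few counts, with 7 in eWAT against 0 in BAT (at least 1.08-fold lower) and 14 against 1 (a ratio of 6.45, interval 0.982 to 273). The calls of Hoxa9, Hoxa10 and Hoxc10 did not hold in every set of libraries: Hoxa9 was lost without eWAT replicate 1 or 2 or BAT replicate 1 or 3 (adjusted p up to 0.133), Hoxa10 without eWAT replicate 2 or any 1 BAT library (up to 0.0968), and Hoxc10 without eWAT replicate 2 or 3 or BAT replicate 1 or 3 (up to 0.131). Without eWAT WT replicate 2 or without BAT WT replicate 3, 2 genes were called lower instead of 4.

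**Figure D4:**
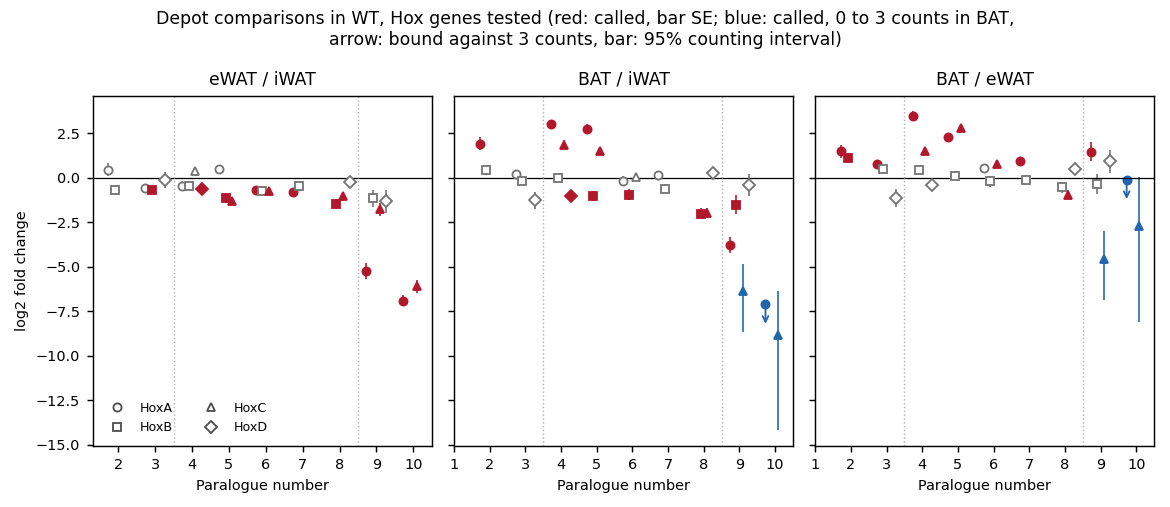
Log2 fold change of 26 of the 27 tested Hox genes by paralogue number in the 3 WT depot comparisons, with shapes for clusters. Red points were called and open points were not, with bars of 1 SE, and blue points were called with 0 to 3 counts in BAT and show either a bound (arrow) or a ratio with its 95% counting interval. Called genes at paralogues 9 and 10 of HoxA and HoxC lie below 0 in eWAT and BAT against iWAT, while Hoxb9 in eWAT and Hoxd9 in both were not called, and BAT lies above both white depots at paralogues 4 and 5 of HoxA and HoxC.

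HoxD genes in BAT turned on WT replicate 2. Hoxd9, a posterior gene, had 1.39, 5.17 and 0.473 RPKM in WT BAT and Hoxd8 had 10.6, 17.0 and 5.55, replicate 2 being the highest in both. The same library held 5 counts of Hoxd10 where the other 5 BAT libraries had 0. Its muscle markers are given above, and it had 948 counts of Tbx15, a T-box factor of muscle and fat, against 42 to 251 in the other BAT libraries; their part in the HoxD values was not tested. With all 3 WT libraries Hoxd9 (-0.42 ± 0.63, adjusted p = 0.605) and Hoxd3 (-1.28 ± 0.50, adjusted p = 0.0519) were not called against iWAT. Without replicate 2 both were, at -1.82 ± 0.42 (adjusted p = 0.00279) and -2.11 ± 0.50 (adjusted p = 0.00342), and 13 genes were lower in BAT instead of 10 (22.0% of all genes, with 21.0% higher). Hoxd4 had 3.43, 1.94 and 2.5 RPKM and was called lower than in iWAT with or without that library.

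The depot pattern was read again in the C6KO libraries, which share no sample with the WT ones. eWAT against iWAT gave 0 higher and 10 lower of 27 (13.1% and 9.59% of 15250 genes), BAT against iWAT 3 higher and 15 lower (17.9% and 19.5%), and BAT against eWAT 7 higher and 7 lower (23.1% and 26.3%). All 10 eWAT genes were among the 13 called in WT. Of the BAT against iWAT calls 12 were shared, 80.0% of the WT list and 66.7% of the C6KO list, and of the BAT against eWAT calls 10 were shared, 71.4% of either list. Every shared call had the same direction, and every gene called in WT had the same sign in C6KO. In C6KO, Hoxa10 and Hoxc10 again passed the filter only through their iWAT counts. Against iWAT these genes could therefore be shared only as lower genes. Hoxa10 had 0 counts in C6KO BAT and was at least 176-fold lower than in C6KO iWAT, and Hoxc10 was at least 255-fold lower. Hoxa4 was again higher in BAT, by a log2 fold change of 2.72 ± 0.25 against iWAT and 3.16 ± 0.25 against eWAT. Hoxd3 (-2.11 ± 0.39) and Hoxd9 (-1.81 ± 0.39) were called lower in C6KO BAT than in C6KO iWAT. In C6KO eWAT, replicate 3 was the highest at Hoxa9 (0.872 RPKM against 0.0336 and 0.0911) and Hoxc9 (4.37 against 1.61 and 1.23).

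Hox cofactors and the chromatin factors that act on the clusters were counted from lists. Over all genes in WT, 14.3% were called higher and 14% lower in eWAT against iWAT. The shares were 20.0% and 20.2% in BAT against iWAT, and 25.2% and 25.0% in BAT against eWAT. Of 9 TALE cofactors 8 were tested, with 2 higher and 0 lower in WT eWAT than iWAT, namely Meis1 (1.16 ± 0.22) and Meis3 (0.79 ± 0.16). In BAT against iWAT Meis1 was higher (0.96 ± 0.23) while Meis3 was lower (-1.54 ± 0.17), and against eWAT only Meis3 was called (-2.33 ± 0.17). The list's median log2 fold changes were 0.31, -0.03 and -0.34 in the 3 comparisons, beside 0.01, 0.01 and 0.03 for all genes. All 27 Polycomb genes were tested, and 2 were higher and 1 lower in eWAT against iWAT, 3 and 1 in BAT against iWAT, and 4 and 3 in BAT against eWAT. Each of these counts was a smaller share of the Polycomb list than the matching share of all genes. The PRC2 accessory subunits Phf19 (1.44 ± 0.28) and Mtf2 (0.65 ± 0.16) were higher in eWAT than iWAT. In BAT against iWAT the PRC1 genes Bmi1 (1.12 ± 0.17) and Pcgf5 (0.72 ± 0.14) and the PRC2 gene Eed (0.63 ± 0.13) were higher and Cbx6 (-0.65 ± 0.16) lower. In BAT against eWAT Pcgf5 (1.27 ± 0.14) and Bmi1 (1.02 ± 0.17) were among the higher genes, and Phf19 (-1.19 ± 0.28), Cbx2 (-0.82 ± 0.31) and Cbx6 (-0.81 ± 0.16) were lower. Of 10 Trithorax genes, 1 was higher and 1 lower in eWAT against iWAT (Psip1, 0.65 ± 0.13, and the H3K27 demethylase Kdm6b, -0.97 ± 0.19). Dpy30 was higher (1.33 ± 0.25) and Kmt2b lower (-0.71 ± 0.24) in BAT than in iWAT, and Dpy30 (1.06 ± 0.25) and Kdm6b (1.03 ± 0.19) were higher in BAT than in eWAT.

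Noncoding RNAs and homeobox genes beside the clusters numbered 22, of which 20 were in the tables and 7 were tested. The shares of all genes called are those given above for each WT depot comparison. In WT eWAT 2 were lower than in iWAT, Mira, which lies in the HoxA cluster, (-0.92 ± 0.20) and Hoxb3os (-0.81 ± 0.27), and in BAT Hoxaas2 was higher than in iWAT (1.13 ± 0.41). In BAT against eWAT 5 were higher, led by Halr1 (3.33 ± 0.85) on 43 counts against 9, Hotairm1 (1.5 ± 0.38) and Hoxaas2 (1.22 ± 0.41). Hotair, the HoxC antisense RNA, had at most 3 counts in any library, and Hottip had 0 in all 18. Of 11 coding neighbours of the clusters 9 were tested. Skap2 was higher (1.19 ± 0.13) and Hibadh lower (-1.02 ± 0.20) in eWAT than iWAT. Mtx2 (1.84 ± 0.26), Hibadh (1.54 ± 0.20) and Snx10 (1.01 ± 0.27) were higher in BAT than iWAT. Against eWAT, BAT was higher for Hibadh (2.56 ± 0.21), Mtx2 (2.23 ± 0.26) and Snx10 (0.82 ± 0.27) and lower for Skap2 (-0.77 ± 0.13).

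Other transcription factors of body position had the widest differences of these lists, with 16 of 21 tested. In eWAT against iWAT 2 were higher and 9 lower, in BAT against iWAT 3 and 2, and in BAT against eWAT 11 and 3. The same shares of all genes called apply here. Tcf21, a factor of visceral mesenchyme, had 73, 116 and 119 counts in WT eWAT and 0 in WT iWAT and BAT, so that it was at least 91.6-fold higher in eWAT than iWAT and at least 47.3-fold higher than in BAT. Zic1 had 144, 123 and 81 counts in WT BAT and 1 in all of WT iWAT, a ratio of 674 (120 to 26677), and its ratio over eWAT was 377 (104 to 3129). Irx1 had 0 counts in WT eWAT and was at least 21.3-fold lower than in iWAT, where Tbx15 (-6.98 ± 1.52) and Shox2 (-5.68 ± 0.53) were the next genes lower in eWAT. Gata6 was higher in eWAT than in iWAT (1.0 ± 0.27) and lower in BAT than in iWAT (-1.35 ± 0.30) and eWAT (-2.35 ± 0.30), and Nr2f1 was lower in BAT than in eWAT (-1.0 ± 0.30). Tbx5 was higher (2.28 ± 0.51) and Shox2 lower (-2.07 ± 0.43) in BAT than in iWAT. Tbx15 was higher in BAT than in eWAT (8.33 ± 1.51), on counts of 42, 948 and 108 against 0, 5 and 1, and Tbx5 had a ratio of 220 (60.2 to 1831).

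The knockout question was whether loss of caspase-6 changed Hox expression within a depot. By edgeR's quasi-likelihood test 0 of 28 tested genes were called in iWAT, 0 of 24 in eWAT and 0 of 24 in BAT. Over all genes the shares called were 0.00688% upward and 0.0206% downward for iWAT, 0.537% and 0.208% for eWAT, and 0.169% and 1.07% for BAT. At an unadjusted p under 0.05 there were 6, 7 and 1 Hox genes, beside 16.5%, 17.6% and 13.2% of all genes. DESeq2 called 1 gene in each depot: Hoxa9 higher in iWAT (log2 fold change 0.73 ± 0.23, adjusted p = 0.0316), Hoxb8 higher in eWAT (0.90 ± 0.26, adjusted p = 0.0127) and Hoxc5 lower in BAT (-0.79 ± 0.25, adjusted p = 0.0405). DESeq2 called more genes throughout, namely 1.06% of all genes upward and 2.65% downward for BAT, 2.78% and 1.23% for eWAT, and 1.15% and 3.42% for iWAT. The smallest adjusted p by edgeR belonged to the same 3 genes, at 0.159, 0.0632 and 0.114. By edgeR no gene was called in any depot among the lists of cofactors, Polycomb and Trithorax genes, RNAs and genes beside the clusters, and other positional factors.

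**Figure D5:**
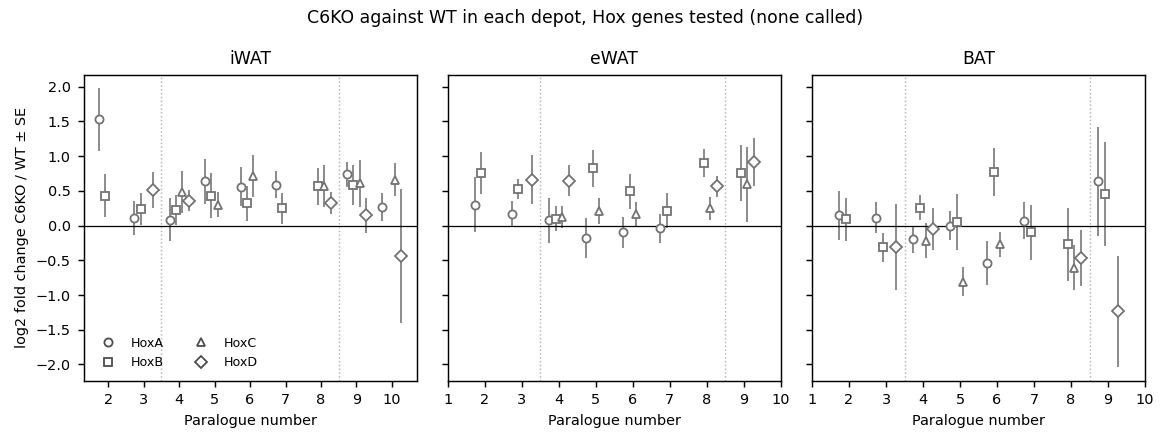
Log2 fold change of C6KO over WT, with bars of 1 SE, for the tested Hox genes, 1 of them not drawn, by paralogue number in iWAT, eWAT and BAT; shapes mark clusters and open points were not called. Of the estimates drawn, 26 of 27 lie above 0 in iWAT, 20 of 23 in eWAT and 9 of 23 in BAT.

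In iWAT 27 of 28 estimates lay above 0, with a median of 0.43 beside 0.03 for all genes. Hoxa9 had 2.79, 3.71 and 3.59 RPKM in WT and 6.38, 5.55 and 4.85 in C6KO, without overlap (0.74 ± 0.18). In all, 8 of 28 genes were higher in C6KO without overlap and 0 lower, beside 10.9% and 12.3% of all genes. C6KO replicate 3 was the C6KO library nearest to the WT mean at 19 of 28 genes and the furthest at 5. It was the nearest at Hoxc8 (26.6 RPKM against 55.4 and 58.6, with WT at 25.5 to 37.8) and Hoxc6 (14.7 against 30.3 and 33.8, with WT at 13.4 to 17.5). It was the furthest at Hoxa2, with 1.97 RPKM against 0.949 and 1.74 and WT at 0.435 to 0.705, a gene with no overlap that was not called (1.53 ± 0.45, adjusted p = 0.181). Without replicate 3, calls rose over all genes to 2.21% higher and 6.43% lower, and 6 Hox genes were called higher: Hoxa5 (0.92 ± 0.20), Hoxa7 (0.70 ± 0.18), Hoxa9 (0.81 ± 0.19), Hoxc6 (0.98 ± 0.15), Hoxc8 (0.83 ± 0.16) and Hoxc10 (0.82 ± 0.21). Macrophage markers in iWAT summed to 1182 CPM in C6KO replicate 3, 390 and 397 in replicates 1 and 2 and 1585 to 1767 in WT, and adipocyte progenitor markers to 3449, 1917 and 2427 against 4875 to 4981. Their part in the Hox values was not tested.

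In eWAT the median was 0.30 beside -0.01 for all genes, and 7 of 24 genes were higher in C6KO without overlap, beside 11.6% of all genes. Hoxb8 had 1.23, 1.45 and 1.36 RPKM in WT and 2.40, 2.58 and 2.52 in C6KO, the clearest separation (0.90 ± 0.20, adjusted p = 0.0632). Hoxb5 (0.82 ± 0.26), Hoxb3 (0.53 ± 0.15) and Hoxd8 (0.56 ± 0.15) had adjusted p of 0.145, 0.108 and 0.0871. Macrophage markers summed to 3544 to 4486 CPM in C6KO eWAT and 5305 to 6244 in WT, and adipocyte markers to 14027 to 18014 against 9962 to 11934, and their part was not tested.

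In BAT the median was -0.08 beside -0.03 for all genes, with 2 genes higher and 1 lower without overlap, beside 7.44% and 12.4% of all genes. The lower gene was Hoxc5, with 24.1, 13 and 19.3 RPKM in WT and 9.80, 10.6 and 11.3 in C6KO (-0.81 ± 0.21, adjusted p = 0.114). Without WT replicate 2 it was called lower (-0.99 ± 0.17, adjusted p = 0.0234), beside 1.05% of all genes lower and 0.24% higher. Macrophage markers summed to 224 to 346 CPM in C6KO BAT and 621 to 811 in WT, with 5 of 8 called lower, and adipocyte progenitor markers to 829 to 1087 against 1308 to 1908, both without overlap; their part in the Hox values was not tested. Tests of the difference in knockout effect between depots called 0 of 28 genes in each of 3 contrasts by edgeR, with 1, 5 and 6 genes at an unadjusted p under 0.05 beside 5.48%, 9.93% and 11.2% of all genes. Over all genes the shares called higher and lower were 0.0% and 0.0% for eWAT minus iWAT, 0.0693% and 0.113% for BAT minus iWAT, and 0.0504% and 0.485% for BAT minus eWAT. Hoxc5 had the smallest adjusted p in both contrasts with BAT, where its effect was lower than in iWAT (-1.12 ± 0.29, adjusted p = 0.158) and eWAT (-1.04 ± 0.29, adjusted p = 0.136).

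Reads of overlapping genes could not be separated by strand, because the strandedness of the libraries is not given in the sources used here. No exon base was shared between Hox members, but among others Hoxa3 and Hoxa11 share 390 and 568 exon bases with the opposite-strand genes Hoxaas2 and Hoxa11os, and Hoxa3 shares 76 with Hoxaas3. The span of Hoxa3 contains Hoxa4, Hoxa5 and Hoxa6, and that of Hoxd3 contains Hoxd4.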

How the data were processed

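The deposited values are whole-number read counts per gene, in 1 table per depot with 25124 genes and 6 libraries each. The authors aligned poly(A) RNA-seq reads to mm10 with STAR and counted reads on exons with HOMER, condensing each gene to 1 transcript; tool versions and strandedness are not given in the sources used here. For 2619 genes the transcript differed between tables, but not for any Hox gene. Libraries were grouped by the depot, genotype and number in their labels. Counts were tested with edgeR 4.0.16 in R 4.3.3 (TMM scaling, filterByExpr, robust quasi-likelihood). The 9 libraries of 1 genotype entered each depot comparison, the 6 of 1 depot each knockout comparison, and all 18 the differences between depots. Calls needed a Benjamini-Hochberg adjusted p below 0.05 over all genes tested and a fold of at least 1.5. Fold changes are log2, with standard errors from the quasi-likelihood F statistic. DESeq2 1.42.0, other scalings and filters, a replicate block and leaving out each library were alternatives. Lower bounds used a floor of 3 counts over a group, and intervals were exact binomial at 95%. The fitting script was tried, for some of the comparisons, on simulated counts that took gene means and library sizes from the real libraries. The simulation gave every gene the same dispersion, so it does not cover the real spread between libraries. Named genes were every Hox gene called in a WT depot or knockout comparison, the 3 highest per depot, those with 0 counts throughout, and up to 3 called genes per list and direction. Other single values were chosen after they were seen. Members and lists were chosen with earlier results of these data known. One Hox gene and a few list genes are counted but not reported by name here.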

Additional observations from a re-analysis of the deposited data

How the results depend on the processing

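Of the 10 WT and C6KO depot counts above 0, 9 stayed within 1.5 times under every other scaling, filter and model tried. The exception was BAT below eWAT in WT, with 7 genes under total counts alone instead of 4. Leaving out 1 library gave 9 to 17 genes lower in eWAT than iWAT in WT (8 to 11 in C6KO), 5 higher and 8 to 13 lower in BAT than iWAT (3 and 11 to 15), and 9 to 11 higher and 2 to 5 lower in BAT than eWAT (5 to 7 and 5 to 8). The knockout counts of 0 became 1 gene higher in iWAT and in eWAT and 1 lower in BAT with DESeq2, and 1 higher in iWAT and 1 lower in BAT with all 18 libraries in one fit. Leaving out 1 library gave 0 to 6 higher in iWAT and 0 to 1 lower in BAT. The difference in knockout effect gave 1 gene lower in BAT minus iWAT and 1 lower in BAT minus eWAT with DESeq2, and 0 to 1 lower in each when 1 library was left out (1 without WT BAT replicate 2 in both, without C6KO iWAT replicate 3 in the first and without WT BAT replicate 3 in the second). Without transcript length the mean paralogue number of WT eWAT was 5.85 instead of 5.93. No Hox gene called in a depot comparison, or with an unadjusted p under 0.05 by edgeR in a knockout comparison, changed sign under any alternative. The folds of other named Hox genes were not checked for sign. What caused the changed counts was not tested.

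Whether replicate numbers pair the libraries is not settled. In no pair of groups was every correlation between same-number libraries above 0.1. Their means ran from -0.263 (WT BAT with C6KO BAT) to 0.118 (WT iWAT with WT eWAT). With 3 libraries per group, this cut-off cannot show whether same-number libraries came from the same mouse. With the replicate number as a block, 13 genes were lower in WT eWAT than iWAT, 5 were higher and 9 lower in BAT than iWAT, and 10 higher and 4 lower in BAT than eWAT, with 0 knockout calls. With counts thinned to the total of the shallowest library, WT BAT had 5 genes higher and 10 lower than iWAT and 10 higher and 4 lower than eWAT; no posterior gene reached 10 counts in every WT BAT library.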
